A study of Mus musculus with 16 samples.

Results

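The comparison described here sets B220+ splenic cells of Eμ-xbp-1s transgenic mice, 5 arrays labelled XBP1s B cells, against the same fraction of nontransgenic mice, 5 arrays labelled as wild-type B cells of the spleen. These 10 arrays were chosen by their labels from the 16 of the series, and no array of the 2 groups was left out. The remaining 6 arrays are from myeloma samples of older transgenic mice and do not enter the main tests below. They enter an alternative fit of all 3 groups and the choice of the brightest probe set of each gene. RNA was hybridised to Affymetrix 430 2.0 arrays, on which a probe set (a group of short probes against a single transcript) gives 1 intensity per array, a relative value on a linear scale. The question that the comparison addresses is how B cells that carry the transgene differ in expression from normal B cells before a tumor is seen.

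The transgene places the mouse xbp-1s coding sequence behind an immunoglobulin V_H promoter and the Eμ enhancer, which act throughout B cell development and also in some T cells. It further encodes eGFP behind an internal ribosome entry site. The transgenic mice and their nontransgenic littermates are C57BL/6, and the mice of these 10 arrays were 20 weeks of age. The mice derive from founder lines, of which S.7 and S.9 are described in detail, and no source used here names the line behind each array. Cells were enriched with magnetic beads against B220, a form of CD45 on B cells that is also found on plasmacytoid dendritic cells and on some activated T and NK cells. Bulk RNA of such a fraction cannot tell fewer cells of a type from less RNA per cell. The series text names 5 mice in each group, but no label ties an array to a mouse, so p-values measure the spread between arrays, and the number of arrays limits the precision.

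XBP-1s is the product of an unconventional splicing step that the endoplasmic reticulum sensor IRE1 carries out on Xbp1 mRNA when unfolded proteins accumulate. It activates genes for chaperones, for protein translocation and for degradation of misfolded proteins, and it is required for the secretory capacity of plasma cells. Mature splenic B cells are mostly follicular and marginal zone cells, which rely on the antigen receptor and its signalling chain, on MHC class II and on transcription factors such as Pax5, and which hold little of the secretory apparatus of plasma cells.

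Xbp1 itself was examined first. Its brightest probe set read 1802, 2452, 2148, 1917 and 2015 on nontransgenic replicates 1 to 5 and 2664, 2232, 2971, 2040.2 and 3108 on Eμ-xbp-1s replicates 1 to 5 (log2 fold change 0.32 ± 0.15, adjusted p = 0.258), and the groups overlapped. None of its 4 tested probe sets passed. The transgene holds the xbp-1s coding sequence with a polyadenylation signal of another gene, and probe sets on this array lie near the 3′ end of a transcript, so that whether these sets read the transgene was not tested, and they check the labels only in part.

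The B cell identity of both groups was checked against markers. Cd79a, the signalling chain of the antigen receptor, stood at 6241 to 7662 in nontransgenic and 2777 to 5549.7 in Eμ-xbp-1s cells, and Ms4a1, which encodes CD20, at 6225 to 7905 and 3397 to 5227. Both genes were far above the floor of 50 on all 10 arrays. The arrays also differed in ways that the labels do not give. Xist, the RNA of the inactive X chromosome of females, was at 81.8, 4332, 4302, 4041 and 4220.1 on nontransgenic replicates 1 to 5 and at 72.5, 65.9, 107, 82.3 and 4392 on Eμ-xbp-1s replicates 1 to 5. It was low on nontransgenic replicate 1 and on Eμ-xbp-1s replicates 1 to 4 and high on the other arrays, so that most nontransgenic arrays carried a high and most Eμ-xbp-1s arrays a low value. No label gives the sex of the mice. Genotype is thus confounded in large part with the Xist class, and the 2 can be told apart only in part. A fit that blocked on this class called 460 probe sets as rises and 55 as falls, in place of the 567 and 99 given below, and 413 and 36 of these were shared. Within the arrays of high Xist, where a single Eμ-xbp-1s array is assumed to vary like the others, 208 were higher and 2 lower, and within those of low Xist, with a single nontransgenic array, 3 and 0. The arrays differed in a second respect as well, since replicates 1 and 2 resembled each other in both groups.

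Values under 50 were raised to 50, and the 20596 probe sets with values over 100 on more than 20% of these arrays were tested with limma (linear models with moderated variances, an adjusted p under 0.01 as threshold). In Eμ-xbp-1s cells 567 probe sets were higher (2.75% of those tested) and 99 were lower (0.481%). Of the 10466 genes that these sets name, each read by its brightest tested set, 343 were higher (3.28%) and 20 lower (0.191%). Most calls were thus rises, 135 probe sets rose by more than 2 on the log2 scale, and the median log2 fold change of all tested genes was -0.02. The median standard error was 0.17 on the log2 scale, and for 3813 genes (36.4%) the 95% interval of the log2 fold change lay within 0.5 of 0. All these values are relative to the bulk of the array. When each array was centred on its mature B cell genes instead, which adds 0.74 to each log2 fold change, 99.9% of the calls were rises, against 85.1% here. With array weights 69.6%, with replicates 1 and 2 left out 65.3% and with replicates 3 to 5 left out 72.9%, the share was lower. At an adjusted p under 0.05 it was 72.6%. The count of falls was the less stable one: with the replicate number as a replicate block 159 probe sets were lower (and 651 higher), and with single arrays left out the falls ranged from 35 to 107. They were 56, 60, 49, 35 and 40 without nontransgenic replicates 1 to 5 in turn, and 54 and 62 without Eμ-xbp-1s replicates 4 and 5.

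**Figure D1:**
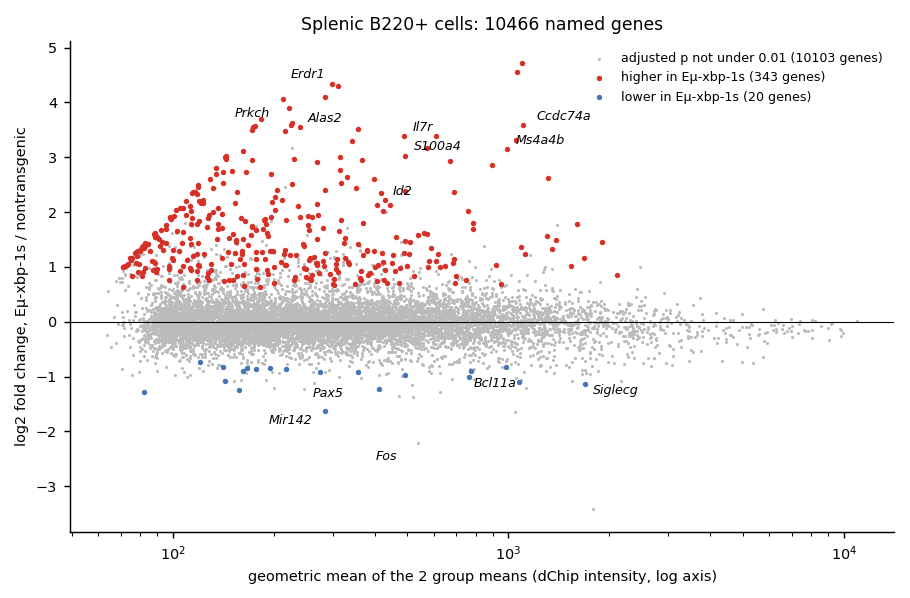
Log2 fold change (Eμ-xbp-1s over nontransgenic B220+ splenic cells) of 10466 genes against the geometric mean of their group intensities on a log axis, each point a gene by its brightest tested probe set, red and blue where the limma adjusted p was under 0.01. The 343 rises lie at low and middle intensities and reach beyond 4, whereas the 20 falls lie between -0.74 and -1.62, and Fos and Pax5 are marked although they did not pass.

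The mean level of the mature B cell genes was lower on every Eμ-xbp-1s array than on any nontransgenic array, and 1 of the genes passed the test. Of 23 tested members of a list of mature B cell genes, 23 had a negative log2 fold change, with a median of -0.71 against -0.02 over all genes, and 12 did not overlap between groups (of all tested genes, 2.31% did not overlap in the lower direction and 6.53% in the higher). The gene that passed was Bcl11a, a zinc finger repressor required for B cell development. Its values were 1315, 1262, 1396, 1318 and 1242 in nontransgenic and 919, 767, 616, 715 and 707 in Eμ-xbp-1s cells, so that the highest Eμ-xbp-1s array lay below the lowest nontransgenic array (log2 fold change -0.82 ± 0.13, adjusted p = 0.00167). Of the 6 tested sets of Bcl11a 2 passed, and with the Xist class of the array as a block its call ended.

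Pax5, the factor that holds B cells to their lineage, had the lowest log2 fold change of the list (-1.22 ± 0.32, adjusted p = 0.0387) at 257 to 492 in nontransgenic and 91.5 to 271 in Eμ-xbp-1s cells. The antigen receptor chain Cd79a read 7662, 6939, 6241, 6421 and 6961 and then 5549.7, 5387, 2777, 3550.3 and 3794, and did not pass (log2 fold change -0.75 ± 0.19, adjusted p = 0.0341). The Eμ-xbp-1s arrays were not alike here: replicates 1 and 2 lay closest to the nontransgenic values and replicate 3 farthest below. The mean log2 level of the whole list showed the same order, at 11.18, 11.21, 11.05, 11.10 and 11.06 on nontransgenic and 10.87, 10.72, 9.82, 10.30 and 10.20 on Eμ-xbp-1s replicates 1 to 5. Same-numbered arrays of the groups varied together, though for nontransgenic replicates 2 to 4 another Eμ-xbp-1s array was closer. A fit with the replicate number as a replicate block called 5 members of this list lower. Without replicates 1 and 2 of both groups 7 were lower.

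Genes of antigen presentation and of receptor signalling mostly had negative log2 fold changes of similar size. All 9 tested MHC class II genes had a negative log2 fold change (median -0.57), from -0.30 for H2-Aa to -0.94 for Ciita, the coactivator that switches the class on, and none passed, with the smallest adjusted p at 0.0424 for H2-Ab1. By an unadjusted p under 0.05, 7 of the 9 were lower, against 6.99% of all tested genes. With replicates 1 and 2 of both groups left out, 2 of the 9 passed. Of 21 tested genes of B cell receptor signalling, 18 were negative (median -0.49) and only Siglecg, an inhibitory lectin of B-1 cells, passed, though not with the Xist class as a block or in 4 of the 10 fits without 1 array (adjusted p up to 0.0117, without nontransgenic replicate 1). Dok3, an adaptor that limits receptor signals, had the lowest log2 fold change (-1.20 ± 0.34, adjusted p = 0.0555). The 11 tested MHC class I genes, which all nucleated cells carry, had a median of -0.08 and no call.

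Among 16 genes that tell B cell subsets apart, Cd5 and Cd9 were higher and Cd1d1, an antigen-presenting molecule of marginal zone cells, was lower on 1 of 2 tested sets, though not with the Xist class as a block (median of the list -0.42). Cr2, the complement receptor CD21, read 3213 to 3696 in nontransgenic and 1398 to 2925 in Eμ-xbp-1s cells without overlap, and did not pass (log2 fold change -0.81 ± 0.20, adjusted p = 0.0338). Fcer2a, which encodes CD23 of follicular cells, overlapped (log2 fold change -0.95 ± 0.32, adjusted p = 0.112). Cd5, which marks B-1a cells and also T cells, was higher on all Eμ-xbp-1s arrays, at 46.2, 57.2, 59.0, 65.8 and 78.1 in nontransgenic and 435, 479, 339, 538 and 644 in Eμ-xbp-1s cells (log2 fold change 2.96 ± 0.18, adjusted p = 9.02e-07). Cd9, a tetraspanin of marginal zone, B-1 and plasma cells and of platelets, rose 2.85-fold to 459 ± 129 (SD, n = 5).

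**Figure D2:**
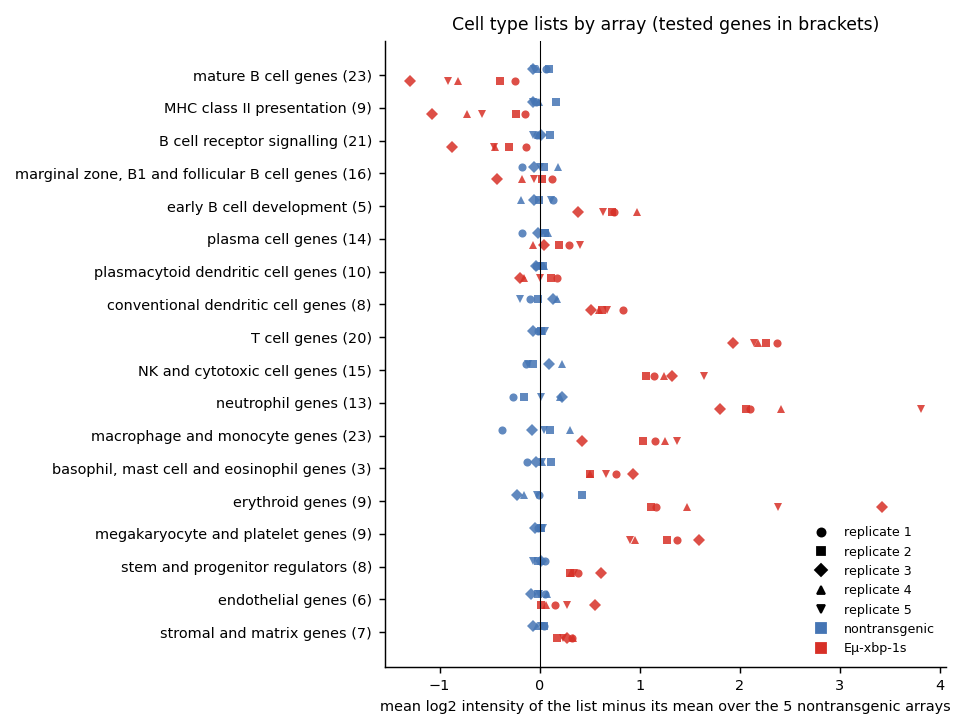
Mean log2 intensity of each gene list on each array, as the difference from the mean of the 5 nontransgenic arrays, with the marker shape giving the replicate and the colour the group. The mature B cell, MHC class II and receptor signalling lists lie below 0 on all Eμ-xbp-1s arrays, the T cell, NK, neutrophil, erythroid and platelet lists above all nontransgenic arrays, and replicates 3 and 5 stand out for erythroid and replicate 5 for neutrophil genes.

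The named genes that passed as lower were few and of mixed function. Of the 99 lower probe sets 49 had no single gene name, against 72 of the 567 higher ones. Of all 20596 tested sets 17286 had such a name. Among called genes read by their brightest set, the largest fall was that of the gene the annotation names Mir142. It is the precursor of a microRNA that is abundant in blood cells. The set reads a longer RNA than the mature microRNA, whose level was not measured. Its mature forms are from RefSeq on GRCm38.p6 chromosome 11, plus strand, with the seed (bases 2 to 8, the part that pairs with targets) in capitals. The forms are shown since this fall was the largest among called genes read by their brightest set:
mmu-miR-142a-5p: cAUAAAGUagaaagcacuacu
mmu-miR-142a-3p: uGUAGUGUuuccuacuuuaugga
Mir142 read 608, 276, 477, 568 and 560.3 in nontransgenic and 155, 144, 250.3, 104 and 159 in Eμ-xbp-1s cells. The lowest nontransgenic value, on replicate 2, was only just above the highest Eμ-xbp-1s value, on replicate 3. The fall was 3.08-fold (log2 fold change -1.62 ± 0.26, adjusted p = 0.00209), and the call ended with the Xist class as a block.

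The long noncoding transcript 6330407A03Rik was among the most even of the falls, from 1571, 1418, 1616, 1616 and 1638 to 879, 794, 622, 690.1 and 722 (log2 fold change -1.09 ± 0.12, adjusted p = 0.000151). Angptl1, a secreted protein of the angiopoietin-like family, fell 2.33-fold from 629 ± 94.6 to 271 ± 42.1 (SD, n = 5), on 1 of its 2 tested sets. Srpk3, a kinase of splicing factors, fell 2.01-fold on 2 of 3 tested sets, at 930.4 to 1259.5 in nontransgenic and 349 to 655 in Eμ-xbp-1s cells. Fgd2, an exchange factor for Cdc42 in antigen-presenting cells, read 852 to 1253 and then 447 to 729.6 (log2 fold change -0.91 ± 0.17, adjusted p = 0.00727), and Arid3b, a DNA-binding protein related to the B cell factor Bright, 316 to 430.2 and then 129 to 237 (log2 fold change -0.91 ± 0.17, adjusted p = 0.00697). The groups did not overlap for any of these 5 genes, and the calls of Fgd2 and Arid3b ended with the Xist class as a block. Of the fits without 1 array, Arid3b did not pass in 8 (up to 0.0257, without nontransgenic replicate 4), Fgd2 in 7 (up to 0.0251, without nontransgenic replicate 1) and Srpk3 in 5 (up to 0.0158, without nontransgenic replicate 1), with the largest adjusted p in parentheses.

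Many falls rested on a single probe set. In all, 46 named genes had a lower probe set, 31 of them had several tested sets, and 0 of the 31 had all sets lower. For rises, 188 genes had a higher set among several, and for 40 of these all sets were higher. Of the 46, 26 are not among the 20 lower genes above because their brightest set did not pass. Malat1, a nuclear long noncoding RNA, had the largest fall of these. A set of it read 1861, 1009, 1863, 1739.6 and 1612 in nontransgenic and 191, 172, 399, 201 and 497 in Eμ-xbp-1s cells, without overlap (log2 fold change -2.57 ± 0.31, adjusted p = 0.000223), while the other 5 sets had log2 fold changes from -0.26 to 0.30. Jun, a subunit of the AP-1 transcription factor, had a set at 547, 257, 347, 404 and 217 and then 91.8, 71.6, 20.6, 32.8 and 53.1 (log2 fold change -2.45 ± 0.26, adjusted p = 8.97e-05) and a second at 364 to 420.3 and 177 to 428 that did not pass (-0.20 ± 0.22, adjusted p = 0.673). Btg1, an antiproliferative gene of resting lymphocytes, had a set that fell 4.21-fold, from 1743, 818, 1258, 1216 and 1312 to 605, 394, 120.1, 293 and 258, beside 2 sets at -0.24 and -0.09. When arrays were centred on the mature B cell genes, only 6 probe sets were lower, and the named ones among them were these 3.

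**Figure D3:**
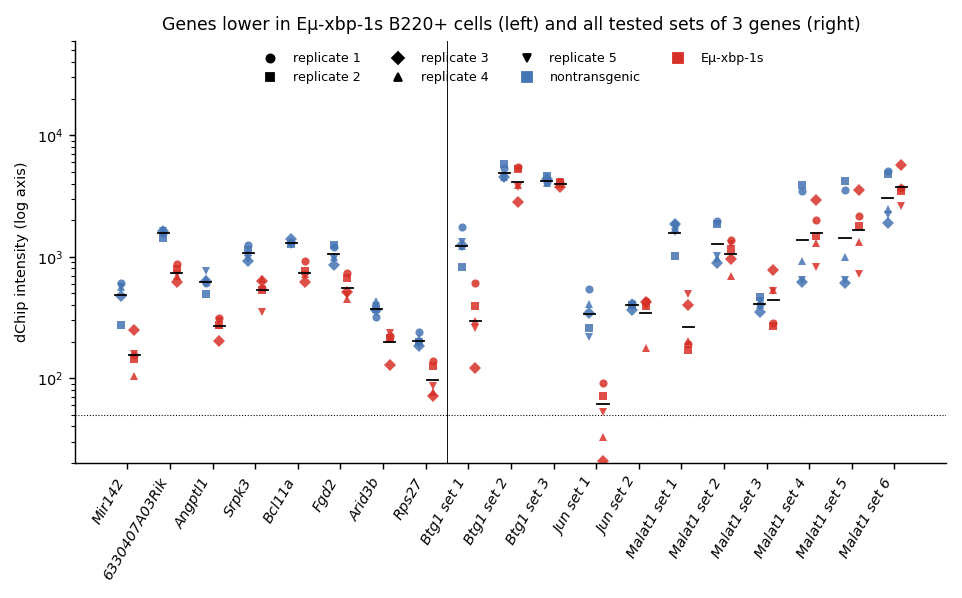
Intensity by array, on a log axis, of 8 genes that were lower in Eμ-xbp-1s cells (left of the line) and of every tested probe set of Btg1, Jun and Malat1 (right), with black bars for the mean of the floored log2 values and a dotted line at the floor of 50. The 2 groups are apart for the 8 genes and for the first set of Btg1, Jun and Malat1, and overlap in every other set of these 3 genes.

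Of the other immediate early genes, Fos, the partner of Jun, had values of 1245, 264, 1375, 1507 and 1097 in nontransgenic and 161, 142, 102, 209.6 and 706 in Eμ-xbp-1s cells. It was high on 4 of the 5 nontransgenic arrays, low on replicate 2, and overlapped with Eμ-xbp-1s replicate 5, and it did not pass (log2 fold change -2.22 ± 0.56, adjusted p = 0.0337). Of the list of 19 immediate early and AP-1 genes, 2 passed as lower without nontransgenic replicate 2. Fosl2, another AP-1 subunit, was higher, under 50 on all nontransgenic arrays (14.6 to 28.1) and at 97.4 to 159.8 in Eμ-xbp-1s cells, at least 2.45-fold higher (log2 fold change 1.29 ± 0.15, adjusted p = 0.000204). Its second tested set was at 126 to 151 and 85.4 to 148 and did not pass (log2 fold change -0.28 ± 0.17, adjusted p = 0.408).

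Genes of cells other than B cells made up part of the rises: 50 of the 343 higher genes are in a list of another cell type, 69 are only in other lists, and 224 are in none of the 52 lists, which hold 832 of the tested genes. T cell genes made up the largest share of these, with 14 of 20 tested members higher (median 2.36). Besides the CD3 chains, this held for receptors and factors of naive T cells. Il7r, the receptor of the survival cytokine IL-7, read 151, 180.5, 132, 129 and 154 in nontransgenic and 2203, 1902, 1044, 1641 and 1205 in Eμ-xbp-1s cells, and both of its sets passed (log2 fold change 3.38 ± 0.20, adjusted p = 7.72e-07). Lef1, a transcription factor of thymocytes and naive T cells that acts with β-catenin, went from 51.5, 76.9, 48.0, 47.3 and 45.7 to 483, 415, 346, 669.8 and 508 (log2 fold change 3.11 ± 0.19, adjusted p = 8.82e-07). Cd28, the costimulatory receptor of T cells and of long-lived plasma cells, lay mostly under the floor at 39.9, 37.4, 46.7, 54.3 and 41.9 and reached 488, 401, 338, 409 and 452, at least 8.15-fold higher. None of these 3 genes overlapped between groups. Il7r is also a gene of early B cell development, a list with 5 tested members of which only Il7r passed. The mean log2 level of that list was 7.67 to 7.99 in nontransgenic and 8.24 to 8.83 in Eμ-xbp-1s cells.

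Genes of both the CD4 and the CD8 lineage were higher. Cd8b1 was at 23.2 to 53.5 in nontransgenic and 449 to 831 in Eμ-xbp-1s cells, at least 12.9-fold higher, and Cd4 at 135 to 211 and 287 to 528 (log2 fold change 1.16 ± 0.19, adjusted p = 0.00216). Cd2, which mouse B cells share with T cells, had a log2 fold change of -0.06. The mean level of the T cell list was 6.65 to 6.77 on the log2 scale over the nontransgenic and 8.65 to 9.09 over the Eμ-xbp-1s arrays, so that its groups were far apart. Without replicates 1 and 2 of both groups 13 of the 20 were higher, and in a fit that shared its spread with the 6 myeloma arrays 11. Further T cell genes stood outside the list. Ms4a4b, a tetraspan protein of T cells, read 244, 289, 407, 444 and 304 and 3282, 2938, 2844, 2761 and 2797 (log2 fold change 3.15 ± 0.17, adjusted p = 3.39e-07, 1 of 2 tested sets), and Slfn1, a member of the Schlafen family that thymocytes express, was at 10.3 to 35.6 and 251 to 477, at least 7.99-fold.

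Of 10 protein kinase C isoforms, which carry antigen receptor signals among others, 2 were higher. Prkch was at 52.1, 75.1, 74.2, 70.4 and 53.2 in nontransgenic and 857, 701, 666, 905 and 766 in Eμ-xbp-1s cells (log2 fold change 3.59 ± 0.15, adjusted p = 7.21e-08, 1 of 2 tested sets), and Prkcq, the isoform at the T cell synapse, at 80.8 to 99.3 and 366 to 539 (log2 fold change 2.40 ± 0.13, adjusted p = 4.04e-07). Prkcb, which acts downstream of the B cell receptor, did not pass (log2 fold change -0.44 ± 0.20, adjusted p = 0.239). The T cell list lay higher on all 5 Eμ-xbp-1s arrays, and its part in the rise of Prkch and Prkcq was not tested.

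Of 15 genes of NK and cytotoxic cells 9 were higher (median 1.38), and in the fit with the myeloma arrays 2. The mean log2 level of the list was 6.89 to 7.25 in nontransgenic and 8.08 to 8.67 in Eμ-xbp-1s cells. Nkg7, a granule membrane protein, rose 5.07-fold, from 188, 153, 220.2, 209 and 157 to 842, 795, 964, 870.2 and 1238 (log2 fold change 2.34 ± 0.16, adjusted p = 2.06e-06). Ccl5, a chemokine of cytotoxic T and NK cells, rose 7.59-fold to 1845 ± 385 (SD, n = 5). Ncr1, the receptor that defines NK cells, did not pass and its groups overlapped, at 100.3 to 184 and 94.1 to 192 (log2 fold change 0.07 ± 0.24, adjusted p = 0.901). Il18r1, the receptor subunit for IL-18, was under the floor on every nontransgenic array (29.6 to 38.2) and at 268, 248, 559.5, 463 and 532 on the Eμ-xbp-1s arrays, where replicates 3 to 5 lay above replicates 1 and 2. Klrd1, a lectin receptor of NK cells, showed the same order among the Eμ-xbp-1s arrays, at 582, 516, 928, 968 and 1407 against 172 to 233 in nontransgenic cells.

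Of 9 erythroid and 9 platelet genes tested, 3 of each were higher. Alas2, an erythroid enzyme that starts heme synthesis, was at 47.0, 81.3, 16.5, 40.4 and 43.6 in nontransgenic cells, of which only replicate 2 was above the floor. It was at 399, 379, 4045, 329 and 559 in Eμ-xbp-1s cells, at least 11.7-fold higher, with replicate 3 far above the other 4. Without that array its log2 fold change was 2.89 in place of 3.55, and it did not pass with the Xist class as a block. Car2, a carbonic anhydrase of red cells, read 193, 301, 101, 154 and 249 and 658, 565, 2579, 552 and 1679 (log2 fold change 2.39 ± 0.45, adjusted p = 0.00680), with replicates 3 and 5 high. Slc4a1, the anion exchanger of the red cell membrane, was also highest on replicates 3 and 5 (234, 203, 3654, 477 and 593 against 17.0 to 135) and did not pass (adjusted p = 0.0125). The median log2 fold change of the erythroid list was 1.86. The mean log2 level of the list was 6.73, 7.16, 6.51, 6.58 and 6.71 in nontransgenic and 7.90, 7.85, 10.16, 8.21 and 9.12 in Eμ-xbp-1s replicates 1 to 5. Without Eμ-xbp-1s replicate 3, 5 genes passed, with the Xist class as a block or without nontransgenic replicate 4, 1 passed, and in the fit with the myeloma arrays none passed. Car2 did not pass with the Xist class as a block or in 5 of the 10 fits without 1 array (adjusted p up to 0.0228, without nontransgenic replicate 4).

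Platelet genes were more even across the Eμ-xbp-1s arrays, with a mean log2 level of 6.59 to 6.67 in nontransgenic and 7.54 to 8.23 in Eμ-xbp-1s cells. Ppbp, a chemokine stored in platelet granules, was at 31.9, 34.9, 50, 48.4 and 36.7 in nontransgenic and 835, 718, 700.2, 437 and 406 in Eμ-xbp-1s cells, at least 11.9-fold higher (adjusted p = 4.04e-07), and its neighbour Pf4, platelet factor 4, at 95.8, 121, 136, 129 and 178 and 801, 621, 1007, 766 and 595 (log2 fold change 2.52 ± 0.19, adjusted p = 4.76e-06). Clec1b, the podoplanin receptor of platelets, rose 3.34-fold. Itga2b, the integrin chain that defines megakaryocytes, overlapped at 62.9 to 103 and 103 to 271 and did not pass (log2 fold change 1.05 ± 0.24, adjusted p = 0.0230). Without Eμ-xbp-1s replicate 5, 5 of the 9 platelet genes were higher.

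Of 18 neutrophil genes with a probe set 13 passed the filter on intensity, and 8 of the 13 were higher (median 2.46). Granule genes were highest on Eμ-xbp-1s replicate 5. The mean log2 level of the list was 6.50 to 6.99 in nontransgenic cells and 8.88, 8.83, 8.57, 9.18 and 10.58 on Eμ-xbp-1s replicates 1 to 5. Camp, the antimicrobial cathelicidin, was under the floor on every nontransgenic array (32.0 to 39.5) and at 299.5, 272, 352, 609 and 3167 on Eμ-xbp-1s replicates 1 to 5 (log2 fold change 3.49, and 2.86 without replicate 5). Ngp, another granule protein, read 263, 299, 259.9, 236 and 241 and 1114, 1035, 621, 1155 and 5263 (log2 fold change 2.37 ± 0.44, adjusted p = 0.00608), and Lcn2, an iron-withholding protein of the same granules, 85.7, 70.1, 66.6, 51.6 and 46.7 and 341, 311, 173, 349 and 1850.5 (log2 fold change 2.70 ± 0.49, adjusted p = 0.00565). For all 3 genes replicate 5 lay far above the other 4 Eμ-xbp-1s arrays. Without it 9 of the 13 genes were higher, and in the fit with the myeloma arrays none was. Ngp did not pass in 7 of the 10 fits without 1 array (adjusted p up to 0.0201, without nontransgenic replicate 4) and Lcn2 in 6 (up to 0.0199, without nontransgenic replicate 4). Ccl6, a chemokine of myeloid cells, was at 23.8, 36.4, 44.9, 61.1 and 36.1 in nontransgenic and 577, 501, 556, 768 and 584 in Eμ-xbp-1s cells, at least 11.4-fold (log2 fold change 3.51 ± 0.14, adjusted p = 5.89e-08, 2 of 2 tested sets).

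Of 23 macrophage and monocyte genes 7 were higher (median 1.05), and without Eμ-xbp-1s replicate 3, 11. The mean log2 level was 7.47 to 8.15 in nontransgenic and 8.27 to 9.21 in Eμ-xbp-1s cells. Lyz2, lysozyme of myeloid cells, rose 6.15-fold from 370.0, 722, 479, 538 and 492 to 3935, 3753, 1621, 2919 and 4273. Csf1r, the receptor that monocytes and macrophages need, rose 2.73-fold from 1154 ± 235 to 3141 ± 616 (SD, n = 5), on 2 of 3 tested sets. C1qa, which marks tissue macrophages, did not pass (log2 fold change 0.81 ± 0.52, adjusted p = 0.440), with 1208, 1044, 142, 515 and 1033 on Eμ-xbp-1s replicates 1 to 5, of which replicate 3 lay below all nontransgenic arrays (230.0 to 535). Fscn1, an actin bundler of mature dendritic cells, and Batf3, a factor of cross-presenting cells, were the 2 of 8 conventional dendritic cell genes that passed, 4.46-fold and 2.29-fold higher, and without Eμ-xbp-1s replicate 3, 4 passed. Xcr1, which marks the same subset as Batf3, did not pass (0.04 ± 0.24, adjusted p = 0.949). Plasmacytoid dendritic cells carry B220, and of their 10 tested genes none passed (median 0.04). Of the 10 genes 5 had a positive and 5 a negative log2 fold change. Tcf4, their master regulator, was at -0.28 ± 0.11, and the marker Bst2 at 0.32 ± 0.21 (adjusted p = 0.454). Ccr9, a further marker, read 202 to 240 in nontransgenic and 296 to 378 in Eμ-xbp-1s cells (log2 fold change 0.59 ± 0.12, adjusted p = 0.0109). Another set of Ccr9 was at 0.04 ± 0.13, and the lectin Siglech was too low to be tested.

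**Figure D4:**
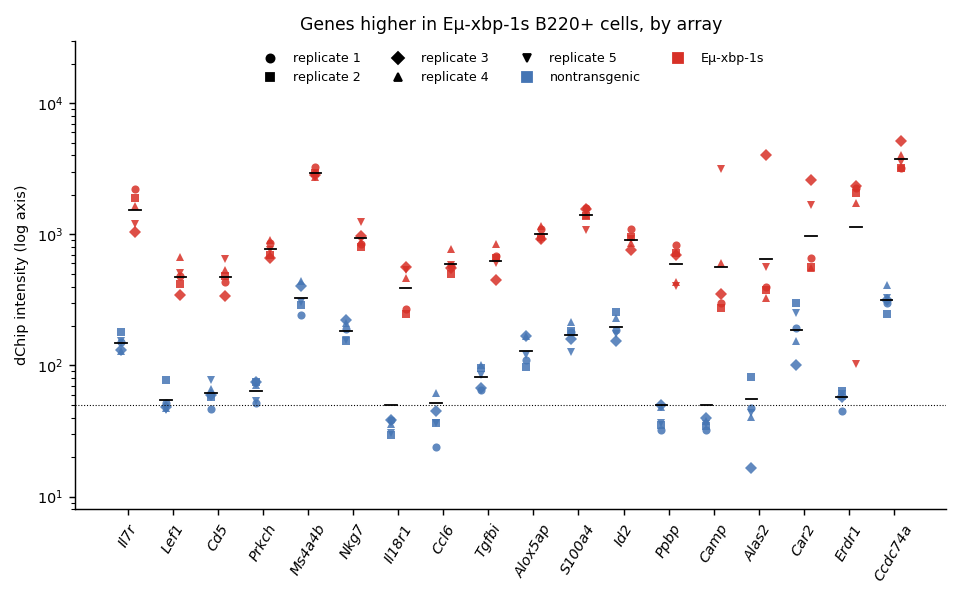
Intensity by array, on a log axis, of 18 genes that were higher in Eμ-xbp-1s cells, with the marker shape for the replicate, black bars for the mean of the floored log2 values and a dotted line at the floor of 50. The groups do not overlap for any gene shown, and single Eμ-xbp-1s arrays stand apart for Camp (replicate 5 high), Alas2 (replicate 3 high) and Erdr1 (replicate 5 low, at 103).

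The function lists repeated the cell type lists in part, because they share members. Over all tested genes 3.28% were higher, which is the share to set beside each count. Of 28 receptors for interleukins and growth factors 9 were higher, led by Il7r and Il18r1, and Tgfbr3, a coreceptor for TGF-β, was under 50 on every nontransgenic array and at 65.5 to 143 in Eμ-xbp-1s cells, and did not pass in 2 of the 10 fits without 1 array (adjusted p up to 0.0105, without nontransgenic replicate 5). Of 21 chemokine ligands with a probe set 10 passed the filter on intensity, and 4 of the 10 rose, which were Ppbp, Ccl6, Ccl5 and Pf4. Of 15 tested chemokine and homing receptors only Cxcr2 of neutrophils and Cxcr6 of effector T and NK cells rose. Cxcr4 and Cxcr5, through which B cells home to marrow and follicles, did not pass (0.06 ± 0.38 and -0.87 ± 0.38). Both were higher on nontransgenic replicates 1 and 2 than on 3 to 5, as in Cxcr4 at 2859, 3011, 1261, 1026 and 1214, and the Eμ-xbp-1s arrays showed the same order (2959, 2514, 891, 1607 and 1541).

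Of 21 S100, annexin and galectin genes 9 were higher (median 0.57). S100a4, which binds nonmuscle myosin and is found in memory T cells and myeloid cells, read 181, 184, 160.0, 214 and 127 in nontransgenic and 1598, 1375, 1557, 1408 and 1089 in Eμ-xbp-1s cells (log2 fold change 3.03 ± 0.16, adjusted p = 3.39e-07). S100a6 rose 6.21-fold and Anxa1, an annexin that restrains inflammation, 4.36-fold, to 666, 567, 719, 982 and 1423 from 164 to 218. Of 15 enzymes and receptors of lipid mediators with a probe set only 6 passed the filter on intensity, and 4 of the 6 were higher. A gene dim in nontransgenic cells passes that filter only where Eμ-xbp-1s arrays raise it, so this share does not describe the whole list. Alox5ap, which presents arachidonic acid for leukotriene synthesis, read 109.6, 97.7, 168, 169 and 120.1 and 1097, 950.4, 927, 1159 and 901 (log2 fold change 2.95 ± 0.17, adjusted p = 6.14e-07), and Hpgd, which inactivates prostaglandins, rose 3.60-fold. With the Xist class as a block 2 of the 6 passed, and the count was also 2 when nontransgenic replicate 1, 3 or 5, or replicate 4 or 5 of the Eμ-xbp-1s arrays, was left out. The T cell, neutrophil and macrophage lists were higher on the same arrays, and their part in these rises was not tested.

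Of 21 interferon-inducible genes 6 were higher, 4 of which are of the IFITM family of membrane proteins that hinder virus entry. Ifitm2 went from 85.1, 102, 124, 141 and 101 to 959, 878, 558, 1078 and 1035 (log2 fold change 3.01 ± 0.20, adjusted p = 1.66e-06), and Ifitm1, which is also a gene of immature cells, was at 69.0 to 112 and 425 to 868 (log2 fold change 2.51 ± 0.21, adjusted p = 1.05e-05). Ifih1, a sensor of viral RNA, rose 2.76-fold and Ifit2 1.95-fold on the floored scale, and Ifit2 did not pass with the Xist class as a block or in 6 of the 10 fits without 1 array (adjusted p up to 0.0143, without Eμ-xbp-1s replicate 4). Without replicates 3 to 5 of both groups 12 of the 21 were higher. Irf7, the factor that amplifies the response, overlapped between groups (77.0 to 114 and 109 to 182, log2 fold change 0.62 ± 0.18, adjusted p = 0.0590).

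Of 17 genes of TGF-β signalling 3 were higher, and of 15 of the Notch and Wnt pathways Notch1 and Lef1, against 3.28% of all tested genes. Tgfbi, a matrix protein induced by TGF-β in monocytes, was at 64.6, 94.9, 67.4, 101 and 84.0 and 679, 656, 448, 837 and 600.4, and all 4 of its sets passed (log2 fold change 2.96 ± 0.19, adjusted p = 1.11e-06). The receptor Tgfbr2 had a log2 fold change of -0.12 ± 0.24. Notch1 rose 2.49-fold, from 152, 199, 306, 277 and 260.0 to 470.4, 408, 525, 766 and 829 (log2 fold change 1.32 ± 0.24, adjusted p = 0.00588), and did not pass in 7 of the 10 fits without 1 array (adjusted p up to 0.0199, without Eμ-xbp-1s replicate 4). Its target Hes1 and Notch2, the receptor of marginal zone B cells, did not pass (-0.26 ± 0.15 and -0.21 ± 0.14). Of 19 checkpoint and costimulatory molecules 7 were higher. Vsir, which encodes the inhibitory ligand VISTA, read 133, 114, 74.9, 95.3 and 86.4 and 487, 444, 176, 340.2 and 350.3, with Eμ-xbp-1s replicate 3 the lowest of its group, and did not pass with the Xist class as a block. Cd27, a marker of T and memory cells, rose 2.21-fold.

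Of 37 lineage transcription factors 7 were higher, and the median was close to 0. Id2, an inhibitor of E proteins that NK cells, innate lymphocytes and dendritic cells need, had the largest rise of them, from 185, 257, 153, 229.7 and 173 to 1095, 951, 756, 866 and 923 on its brightest set, and both sets passed (log2 fold change 2.22 ± 0.17, adjusted p = 4.35e-06). Bach1, a repressor of heme-responsive genes, rose 2.06-fold on 1 of 2 tested sets, and did not pass with the Xist class as a block or in 2 of the 10 fits without 1 array (adjusted p up to 0.0114, without nontransgenic replicate 5). Factors that all lymphocytes share were close to 0, with Ikzf1 at 0.02 ± 0.18 and Runx1 at -0.17 ± 0.12. Kit, the stem cell factor receptor of progenitors and mast cells, was at 20.1 to 51.6 in nontransgenic and 93.5 to 158 in Eμ-xbp-1s cells, and Myb, a factor of progenitors, rose 2.06-fold on 1 of 3 tested sets. Myb did not pass with the Xist class as a block or in 8 of the 10 fits without 1 array (adjusted p up to 0.0264, without nontransgenic replicate 5).

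**Figure D5:**
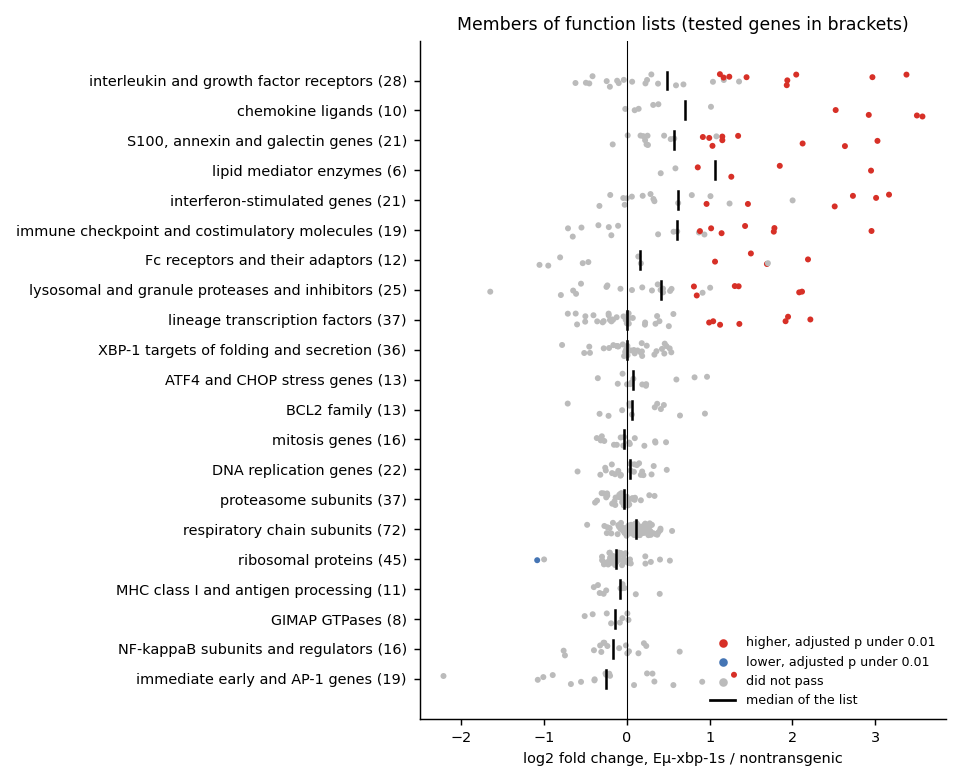
Log2 fold change (Eμ-xbp-1s over nontransgenic) of every tested member of 21 function lists, with red and blue for members past the limma threshold, grey for the others and a black bar for the median of the list. The upper lists hold 4 to 9 higher members each, while the lists of XBP-1 targets, stress genes, BCL2 family, mitosis, replication, proteasome, respiratory chain, MHC class I, GIMAP and NF-kappaB genes hold no call.

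Of the 224 rises outside all lists, some were among the largest. Ccdc74a, a coiled-coil gene of little known function, was at 302, 245, 317, 409 and 324 in nontransgenic and 3228, 3229.9, 5148, 4031 and 3562 in Eμ-xbp-1s cells (log2 fold change 3.58 ± 0.17, adjusted p = 1.76e-07), and its second tested set did not pass. The lowest Eμ-xbp-1s array lay far above the highest nontransgenic array. Erdr1, a stress-associated gene at the end of the sex chromosomes, read 45.1, 64.0, 57.2, 58.5 and 60.9 in nontransgenic and 2262, 2074, 2327, 1731 and 103 in Eμ-xbp-1s cells. On 4 of the Eμ-xbp-1s arrays it was very high and replicate 5, the array of this group with high Xist, was close to the nontransgenic level, while nontransgenic replicate 1, whose Xist was low, was not raised. Its log2 fold change was 4.30 ± 0.72 (adjusted p = 0.00312, 1 of 2 tested sets), and it did not pass with the Xist class as a block or in 4 of the 10 fits without 1 array (adjusted p up to 0.0120, without Eμ-xbp-1s replicate 4). Without Eμ-xbp-1s replicate 5 its log2 fold change was 5.17. Ctla2a, a cysteine protease inhibitor of activated T and mast cells, read 85.2, 110.1, 107, 109 and 107 and 1467, 1260.5, 1658, 965 and 785 (log2 fold change 3.52 ± 0.20, adjusted p = 4.27e-07). Emilin2, a matrix glycoprotein of platelets and leukocytes, rose at least 5.15-fold and Actn1, α-actinin, 4.40-fold on 1 of 3 tested sets.

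The targets of XBP-1 were the list most directly tied to the transgene. An element that XBP-1s and ATF6 bind in such promoters, the ER stress response element (ERSE), is the letters CCAAT and CCACG with 9 bases between them, searched on both strands. In promoter windows of 300 bases from RefSeq it was present in 8 of the 27 tested targets that have a window (29.6%), in 14 of 8470 tested genes (0.165%), in 0 of the 269 higher genes and in 0 of the 13 lower genes with a window. A shorter motif, ACGTGG, which can overlap the ERSE where a T follows it, was in 33.3% of the targets, 13% of tested genes and 5.58% of the higher genes. The windows of 3 targets on GRCm38.p6 are printed on the strand of the gene, 5′ to 3′, with the 5 letters at each end of an ERSE, in either orientation, in capitals. The Hspa5 window is chr2:34771840-34772139 (plus strand), that of Hsp90b1 chr10:86705395-86705694 (minus strand) and that of Calr chr8:84846882-84847181 (minus strand). They are shown because these genes carry the element and did not pass the test:
Hspa5: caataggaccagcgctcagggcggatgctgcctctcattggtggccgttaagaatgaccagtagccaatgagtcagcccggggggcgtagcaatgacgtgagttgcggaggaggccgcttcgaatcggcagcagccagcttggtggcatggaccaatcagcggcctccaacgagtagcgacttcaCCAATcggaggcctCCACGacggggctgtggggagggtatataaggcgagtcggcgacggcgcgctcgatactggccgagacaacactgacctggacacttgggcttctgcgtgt
Hsp90b1: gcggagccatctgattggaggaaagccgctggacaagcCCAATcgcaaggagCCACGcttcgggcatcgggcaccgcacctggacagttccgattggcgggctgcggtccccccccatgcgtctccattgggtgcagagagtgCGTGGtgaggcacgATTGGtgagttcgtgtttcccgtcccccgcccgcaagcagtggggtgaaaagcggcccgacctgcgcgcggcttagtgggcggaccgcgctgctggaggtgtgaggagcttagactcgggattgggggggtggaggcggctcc
Calr: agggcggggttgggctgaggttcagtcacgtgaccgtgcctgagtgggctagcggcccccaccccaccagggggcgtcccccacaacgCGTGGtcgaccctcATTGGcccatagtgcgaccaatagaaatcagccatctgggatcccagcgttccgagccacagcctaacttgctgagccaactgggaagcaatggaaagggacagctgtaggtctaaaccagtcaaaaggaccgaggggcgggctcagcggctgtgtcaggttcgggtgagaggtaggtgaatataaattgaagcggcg

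Hspa5, the chaperone BiP, read 1838, 1822, 1666, 2055 and 1549 in nontransgenic and 1997, 1654, 1900.1, 1645 and 1202 in Eμ-xbp-1s cells (log2 fold change -0.10 ± 0.15, adjusted p = 0.770). Hsp90b1, GRP94, had a log2 fold change of -0.05 ± 0.21 and Calr, calreticulin, of -0.22 ± 0.15, and the groups overlapped for each of these 3 genes. The 8 targets with an ERSE lay between -0.78 (Syvn1) and 0.54 (Dnajc3). Over the whole list of 36 tested targets 0 passed and the median was 0.01. For 34 of the 36 the 95% interval of the log2 fold change lay within 1 of 0. Relative to the bulk of the array, this leaves out changes of more than 2-fold for these 34. With centring on the mature B cell genes, which adds 0.74 to each log2 fold change, the median of the list was 0.74. The intervals therefore set no limit on a change within the B cells alone. Dnajb9, a cochaperone that depends strongly on XBP-1, read 534, 662, 811, 765 and 721 and 805, 665, 725, 784 and 929 (95% interval -0.15 to 0.49). By an unadjusted p under 0.05, 7 of the 36 were higher and 3 lower, against 12% and 6.99% of all tested genes. Only Cd28, itself a T cell gene, passed among 14 plasma cell genes, while Prdm1 and Sdc1, which define plasma cells, did not (0.44 ± 0.16 and 0.33 ± 0.23).

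The immunoglobulin heavy chain gene Ighm had 8 tested sets, and none passed. Its brightest set overlapped between groups (9978 to 12525 and 9867 to 12146). On Eμ-xbp-1s replicate 5 alone 4 of the 8 sets were high, as in the set at 643, 1616, 2282, 1778 and 1225 in nontransgenic and 1862, 1653, 1430.3, 1606 and 10296 in Eμ-xbp-1s cells (adjusted p = 0.462). On nontransgenic replicate 1 the same set was the lowest of the 10 arrays. Such sets can share sequence with other rearranged heavy chains.

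Most lists of basic cell function held no call. By its brightest set no member passed among 13 tested genes of ATF4 and CHOP stress (median 0.08) and 16 of NF-kappaB (-0.16). The same held for 13 of the BCL2 family (0.06), 16 of mitosis (-0.04) and 22 of DNA replication (0.04). It also held for 37 proteasome subunits (-0.04), 72 respiratory chain subunits (0.11), 12 of complement (0.11) and 8 GIMAP GTPases of lymphocyte survival (-0.14). C1qb of complement passed as higher on another set (log2 fold change 1.65 ± 0.23, adjusted p = 0.000830). Over all tested genes 3.28% were higher and 0.191% lower, so the lack of a call in a short list says little. For all 72 respiratory chain subunits the 95% interval lay within 1 of 0, as it did for 35 of the 37 proteasome subunits and 13 of the 16 mitosis genes. Mki67, a marker of cycling cells, overlapped between groups, at 221, 352, 663, 700.3 and 324 and 377, 355, 1100.5, 549.6 and 473 (log2 fold change 0.34 ± 0.37, adjusted p = 0.665). Bcl2l1, which encodes the survival protein BCL-XL of erythroid precursors and lymphocytes, was at 194, 186, 1037, 187 and 185 in Eμ-xbp-1s cells against 115 to 164, with replicate 3, the array with the highest erythroid list, alone high (adjusted p = 0.240). Of 45 ribosomal protein genes only Rps27 passed, as lower, at 184 to 239 and then 70.9 to 139.5, and it did not pass with the Xist class as a block or in 7 of the 10 fits without 1 array (adjusted p up to 0.0192, without nontransgenic replicate 4). The set of Rps27 was dim beside the ribosomal list, whose mean log2 level was 11.88 to 11.95 in nontransgenic cells.

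A few genes of metabolism and growth factor signalling passed, where 3.28% of all tested genes were higher. A single call in a list of this size is no result about its function. Lpin1, a phosphatidate phosphatase of lipid synthesis and a coactivator, rose 3.19-fold on both sets, from 82.9, 119.5, 85.9, 109 and 95.5 to 258, 235, 344, 348 and 402 (log2 fold change 1.67 ± 0.17, adjusted p = 7.87e-05), as the only 1 of 21 sterol and fatty acid genes. Pdk1, the kinase that closes pyruvate dehydrogenase, rose 2.08-fold on 2 of 4 tested sets, at 185 to 335 and 408 to 611, as the only 1 of 14 glycolysis genes, and did not pass with the Xist class as a block or in 4 of the 10 fits without 1 array (adjusted p up to 0.0119, without nontransgenic replicate 5). Igf1r, the receptor for IGF-1, rose 1.69-fold, from 115, 109.6, 139, 112 and 106 to 173, 163, 216, 199 and 239 (log2 fold change 0.76 ± 0.14, adjusted p = 0.00569), and did not pass with the Xist class as a block or in 7 of the 10 fits without 1 array (adjusted p up to 0.0233, without nontransgenic replicate 5). Igf2, a ligand, did not pass (-0.16 ± 0.16, adjusted p = 0.641). Of 8 tested genes of the IGF system 2 were higher, and the larger rise was that of Igfbp4, a binding protein. It read 51.2, 64.3, 33.1, 49.4 and 47.2 in nontransgenic and 1168, 948, 536, 1071 and 842 in Eμ-xbp-1s cells. Its log2 fold change was 4.06 ± 0.20 (adjusted p = 1.77e-07), and some of its other sets did not pass. Hp, haptoglobin, which binds free hemoglobin and is stored in neutrophil granules, was under 50 on every nontransgenic array and at 211 to 338 in Eμ-xbp-1s cells, at least 5.61-fold higher. Hmox1, heme oxygenase of macrophages, overlapped and did not pass (log2 fold change 0.46 ± 0.35, adjusted p = 0.521).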

How the data were processed

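The values that the authors deposited are linear intensities, 1 for each probe set of each Affymetrix 430 2.0 array. The authors had computed them with the model-based method of dChip, after normalizing to the array of median intensity, and its version is not given in the sources used. Groups were taken from the sample labels. From the deposited intensities, 64 control probe sets were left out, a floor of 50 was applied, and 20596 of 45037 probe sets passed a filter that asked for values over 100 on more than 20% of the arrays compared. Log2 values were compared with limma 3.58.1 (R 4.3.3), with the Benjamini-Hochberg adjustment over all tested probe sets and an adjusted p under 0.01. Errors of log2 fold changes are standard errors. Array precision depends on 5 arrays per group, and no read depth applies. Genes were named from the platform annotation with symbols brought up to date through RefSeq (34754 of 34958 probe sets with a single gene), 932 probe sets listed several genes and 9211 were not listed, and each gene was read by the brightest of its tested probe sets (mean of all 16 arrays). Folds and fold changes are on the floored scale.

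The members and gene lists were chosen with earlier results of these data known, so counts over lists carry no test. Counts are out of the members that passed the filter. A gene dim in nontransgenic cells passes it only where Eμ-xbp-1s arrays raise it, so shares of rises in lists of other cells are inflated. The share to set beside each count is 3.28% of all tested genes higher and 0.191% lower. Genes named in the text were drawn from the 20 largest rises and falls among calls whose groups did not overlap. Up to 6 called members of each list in each direction and the first 4 members of each list were also eligible. So were the 10 calls outside the lists with the smallest adjusted p in each direction. Not every gene that meets this rule is described, and some of the largest rises are not. Malat1, Jun, Btg1, the sets of Ighm, Calr, Cd2, Cd4, Ciita, Dok3, Hsp90b1 and Pax5 were added after their values were seen. Same-numbered arrays deviated together (correlation of their deviations 0.512, 0.527, 0.218, 0.176 and 0.512), so the numbers were taken as pairs in an alternative fit. By the same correlation, the closest Eμ-xbp-1s arrays to nontransgenic replicates 1 to 5 were replicates 1, 1, 5, 5 and 5. For nontransgenic replicates 2 to 4 the closest array was thus not the same-numbered one, and no label names pairs. Arrays were also compared by Xist after the data were seen. Promoter windows and mature microRNAs came from RefSeq on GRCm38.p6. The limma steps were tested on simulated data. Other settings were the floor, a pseudocount, the filter, quantile normalization, centring, array weights, variance trend, all 3 groups in a single fit, SAM and the exclusion of arrays.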

Additional observations from a re-analysis of the deposited data

Results flagged for a closer look

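Among 217 groups of 5 values, for most of the genes and probe sets and some of the lists described above, 18 had an array apart from the other 4, by a gap of more than 0.71 of the range of the group. Chance flags about 1 in 20 groups. Eμ-xbp-1s replicate 3 was the array apart in 6 of them, nontransgenic replicate 2 in 4, nontransgenic replicate 1 and Eμ-xbp-1s replicate 5 in 3 each, and Eμ-xbp-1s replicate 4 in 2.

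On Eμ-xbp-1s replicate 3, red cell and platelet genes lay high and B and T cell genes low. Alas2, of heme synthesis, reached 4045, Bcl2l1, the survival gene of erythroid precursors, 1037, and Clec1b of platelets 541. H2-Ab1 of MHC class II was low there at 3545, as were Slfn1 of T cells at 251 and Arid3b at 129. The mean level of the erythroid list was highest on this array and that of the mature B cell list lowest.

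On Eμ-xbp-1s replicate 5, a probe set of Ighm read 10296, Erdr1 was low at 103, and Xist was high at 4392, unlike the other 4 arrays of its group. On nontransgenic replicate 1 Xist was low at 81.8, Cd9 at 105 and the protease inhibitor Ctla2a at 85.2. What sets these arrays apart is not in the labels and was not tested.

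Nontransgenic replicate 2 was the low array for 2 transcripts that passed or came near to it as falls, with Fos at 264 and the lower set of Malat1 at 1009. It was also low for Cd2 at 912 and high for Pdk1 at 335. On Eμ-xbp-1s replicate 4 Ifitm1 was high at 868 and the second set of Jun low at 177.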

How the results depend on the processing

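The counts of 567 higher and 99 lower probe sets moved with several settings. They were 374 and 57 with no filter on low values, 8399 and 6 with each array centred on the mature B cell genes, 1329 and 580 with array weights, 199 and 18 with all 3 groups in a single fit, 1023 and 387 at an adjusted p under 0.05, and 1308 and 346 by SAM. With the replicate block, which takes same-numbered arrays as paired, they were 651 and 159. Leaving out single arrays gave 417 to 668 higher and 35 to 107 lower. Chosen after the data were seen were the fits without replicates 1 and 2 of both groups (494 and 262) and without replicates 3 to 5 (1114 and 415), with the Xist class as a block (460 and 55), and within the arrays with high Xist (208 and 2) and with low Xist (3 and 0). The last 2 have a single array in 1 group, and the causes of the other shifts were not tested. Quantile normalization, floors of 16 and 100, a pseudocount of 50 and a trended robust variance kept both counts within 1.5 times.

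Of 137 called genes named by the rule, the replicate block kept 135 (not Car2 or Ptger4), the Xist class as a block 112, the fit of 3 groups 56, a floor of 100 114, and no filter 91. B cell centring adds 0.74 to each log2 fold change, so that 59 of 275 named genes turned from below to above 0 by construction, and 10 of these were then past the threshold: B2m 0.68, Cdk4 0.66, Ctss 0.66, Gimap3 0.68, Hes1 0.48, Hlf 0.59, Psma2 0.73, Tap1 0.68, Tgfbr2 0.62 and Trib3 0.62. Dim probe sets limit the size of folds, since 68 of the 343 higher genes were at the floor in nontransgenic cells.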

Other observations

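Some receptors of phagocytes not described above were higher. Of 21 Toll-like receptors and lectins 5 passed, with a median log2 fold change of -0.06 over the list. Clec7a, the receptor for fungal β-glucan, read 34.4, 39.0, 57.3, 80.3 and 93.4 on nontransgenic and 289, 279.9, 471, 649 and 555 on Eμ-xbp-1s replicates 1 to 5 (log2 fold change 2.73 ± 0.27, adjusted p = 5.56e-05), and the groups did not overlap. Tlr13, a sensor of bacterial ribosomal RNA, was at 53.7 to 69.5 and 129.7 to 269.5 (log2 fold change 1.78 ± 0.18, adjusted p = 7.86e-05). Of 12 Fc receptors and adaptors 4 passed, with a median of 0.15. Fcer1g, the shared signalling chain, rose 3.23-fold, from 222 to 665 in nontransgenic to values of 1051 to 1886, and Tyrobp, the adaptor DAP12 of myeloid and NK cells, 2.83-fold. Fcgr2b, the inhibitory receptor that B cells carry, did not pass (log2 fold change -0.47 ± 0.16, adjusted p = 0.123).

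Among granule and lysosomal proteins 6 of 25 were higher. Ctsw, a cathepsin of cytotoxic cells, read 119.9, 108, 104, 122 and 108 and 374, 373, 566, 509 and 674 (log2 fold change 2.12 ± 0.17, adjusted p = 1.05e-05), and Serpinb9, which protects cells from granzyme B, rose 2.47-fold on the floored scale. Timp2, an inhibitor of matrix proteases, had the log2 fold change 0.81 ± 0.14 on its brightest set, 3 of its 4 tested sets passed, and the brightest did not pass with the Xist class as a block or in 7 of the 10 fits without 1 array (adjusted p up to 0.0148, without nontransgenic replicate 5). The macrophage, neutrophil and NK cell lists were higher on the same arrays, and their part in these values was not tested.

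Adhesion molecules had 4 of 23 members higher (of all tested genes 3.28%), and 8 without Eμ-xbp-1s replicate 3. Itgae, the αE integrin of intraepithelial T cells and some dendritic cells, was at 75.5 to 108 in nontransgenic and 202 to 294 in Eμ-xbp-1s cells (log2 fold change 1.48 ± 0.15, adjusted p = 5.36e-05). Its second tested set overlapped at 125 to 174 and 151 to 236 and did not pass (log2 fold change 0.49 ± 0.16, adjusted p = 0.0922). Selplg, the selectin ligand of leukocytes, rose 3.49-fold. Itga6, an integrin for laminin on platelets and T cells, read 127, 161, 152, 146 and 162 and 451, 407, 283, 453 and 411 (log2 fold change 1.41 ± 0.15, adjusted p = 9.73e-05). Genes of endothelium did not pass in any of 6 tested, and of 7 stromal genes Fn1, fibronectin, did, at 91.0 to 112 and 261 to 609 (log2 fold change 1.92 ± 0.20, adjusted p = 7.86e-05).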
